A study of Homo sapiens with 12 samples.

Results

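The genes described here were 34 genes of cholesterol and fatty acid metabolism, chosen by symbol, of 58288 genes in the count table. They comprised 6 enzymes of the mevalonate segment, 11 enzymes from squalene to cholesterol, 5 genes of the SREBP system, 4 genes of the liver X receptor (LXR) and cholesterol efflux, 4 genes of cholesterol storage and transport, and 4 enzymes of fatty acid synthesis. All 34 had a row in the table. RNA-seq was performed on HL-60/S4, a human promyelocytic leukaemia cell line, either as undifferentiated promyelocytes or as granulocytes, obtained by 4 days of all-trans retinoic acid (ATRA) at 1 µM. Each form received 16 ng/ml TNF-α or the same volume of water (vehicle) for 2 h in calcium-supplemented medium, which all 4 groups shared, and each group had 3 libraries, each from its own flask of cells at passage 8. All flasks came from 1 cell line, so the replicate error covers flasks and not different origins of the cells. The 2 forms were treated in experiments of their own, and cell type and experiment cannot be told apart where levels are set side by side.

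Cholesterol is built from acetyl-CoA through mevalonate, farnesyl diphosphate and squalene, and fatty acids are built from the same precursor. Transcription of both routes is driven by the SREBP proteins (encoded by *SREBF1* and *SREBF2*), which are escorted from the endoplasmic reticulum by SCAP and held there by the INSIG proteins when sterols are plentiful. LXR acts in the opposite situation, raising the cholesterol exporters ABCA1 and ABCG1 when oxysterols accumulate. In myeloid cells these routes set membrane cholesterol.

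The libraries held between 22829189 and 31895061 counts (median 28233190). Of 6 NF-κB response genes, all 6 rose in both cell types, with *NFKBIA*, the inhibitor of NF-κB, at log2 fold changes of 3.91 ± 0.06 (SE) in promyelocytes and 5.51 ± 0.06 in granulocytes. The summed level of 5 promyelocyte markers was 7355 to 7968 CPM (counts scaled to the TMM-normalised library size) in vehicle promyelocytes and 2134 to 2359 CPM in vehicle granulocytes, while 6 granulocyte markers summed to 145 to 153 CPM and 3690 to 3886 CPM. The labelled cell types were therefore separated by their markers. Macrophage markers (6 genes) summed to at most 0.715 CPM in any library, none of them passed the filter on low counts, and *MSR1* was at 0 in all 12 libraries. In these bulk libraries fewer cells of a type and less RNA per cell cannot be told apart.

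Levels per gene length (FPKM, the CPM per 1000 bases of the gene length in the table) were used to order the genes. In vehicle promyelocytes the order was led by *SCD*, *ACLY* and *FASN*, all enzymes of fatty acid synthesis. The desaturase *SCD* had 156 ± 5.84 FPKM (mean ± SD, n = 3), *ACLY*, which makes cytosolic acetyl-CoA, had 98.3 ± 3.50 FPKM, and fatty acid synthase *FASN* had 82.8 ± 4.25 FPKM. The next were farnesyl diphosphate synthase *FDPS* at 57.1 ± 2.65 FPKM and the sterol isomerase *EBP* at 52.4 ± 2.42 FPKM, whose libraries overlapped. *ACACA*, the remaining fatty acid enzyme, stood lower, at 17.5 ± 0.405 FPKM. *SREBF2* stood at 36.9 ± 1.01 FPKM, far above *SREBF1* at 6.56 ± 0.371 FPKM. In vehicle granulocytes the order was led by *NPC2*, a lysosomal cholesterol carrier, at 49.6 ± 2.21 FPKM and by *ACLY* at 48.7 ± 2.59 FPKM, which did not differ beyond their spread, followed by *SREBF2* at 34.1 ± 0.729 FPKM. Of 32 genes set side by side, 25 had the higher CPM in vehicle promyelocytes and 14 were more than 2-fold higher there, among them *FASN* (8.02-fold), *SCD* (7.69-fold) and *ABCA1* (10.5-fold). Only *NPC2* was more than 2-fold higher in granulocytes, at 10.1-fold. The CPM were scaled within each cell type and not between them. No share over all genes was computed beside these counts, and no test was made on these levels.

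**Figure D1:**
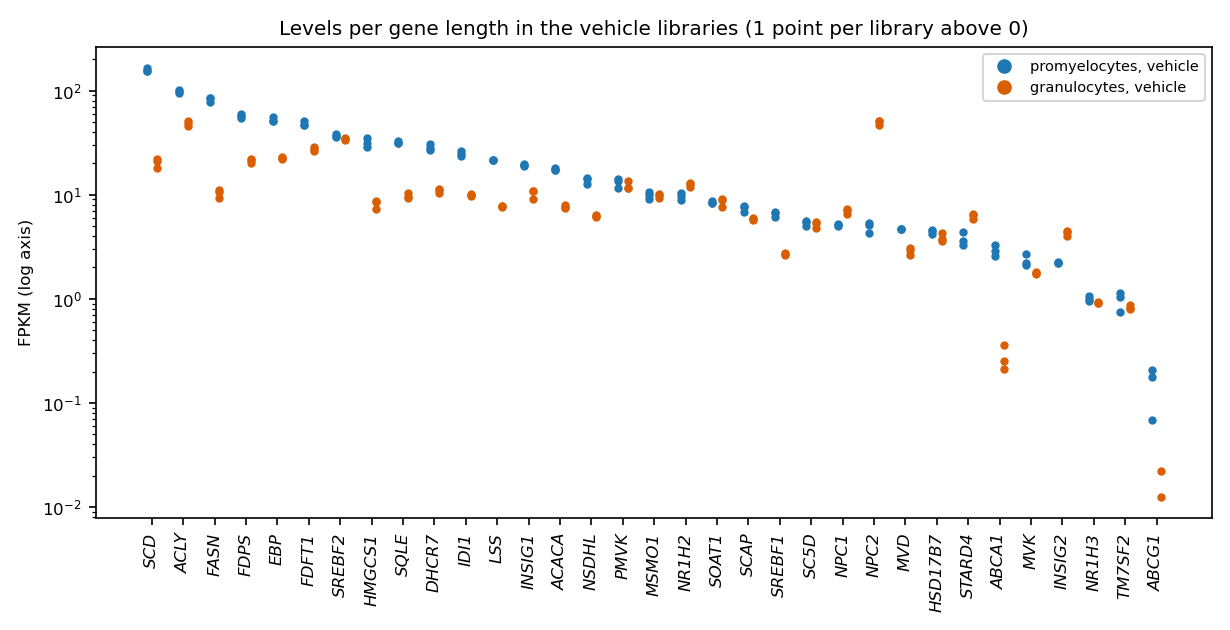
FPKM of the genes in each vehicle library (log axis), ordered by the promyelocyte mean, for promyelocytes (blue) and granulocytes (orange); libraries at 0 are not drawn and *CYP51A1* is left out. *SCD*, *ACLY* and *FASN* lead in promyelocytes, with *SCD* at 156 FPKM, and *NPC2* leads in granulocytes at 49.6 FPKM.

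Both genes missing from the comparison of levels were scarcely counted. *CYP51A1*, the lanosterol demethylase, had 0 or 1 count in each of the 12 libraries, and 78.8% of its exonic bases in the table (3211 of 4074) also lay in exons of *LRRD1* on the same strand, which itself had 7 to 32 counts. Read pairs on exons of more than 1 gene were left out by the counting, and *CYP51A1* took no part in any test. *ABCG1*, the second cholesterol exporter, had 34, 35 and 12 counts in vehicle promyelocytes and 9, 13 and 19 counts with TNF-α, a log2 fold change of -0.95 ± 0.41 that did not pass the test (edgeR adjusted p = 0.138). Without vehicle replicate 3 it was -1.30 (edgeR adjusted p = 0.0274). In granulocytes it had 2, 0 and 4 counts with vehicle and 4, 1 and 1 with TNF-α and was not tested.

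The promoter windows of 30 of the 34 genes were read from RefSeq (build GRCh38.p14), each running from 250 bases before to 50 bases after an annotated start site. The SREBP motif TCACNCCAC, searched on both strands like the other motifs, was held by 1 of the 30 genes, *SREBF2*, and by 1.39% of all 27305 genes with a window. The NF-Y motif CCAAT was held by 22 of the 30 genes (73.3%) and by 39.7% of all genes. The NF-κB consensus was held by 5 of the 30 (*HMGCS1*, *INSIG2*, *MVK*, *SREBF1* and *SREBF2*), or 16.7%, and by 7.09% of all genes. Both longer motifs were searched by exact letters, and a match or its absence describes these windows only. The windows of *STARD4*, *LSS* and *MVD* are shown because these genes responded most strongly in granulocytes among the members with a CCAAT match, and that of *SREBF2* because it held all the motifs. Capitals mark the matches (ATTGG is CCAAT on the other strand), and the windows are chr5:111512486-111512785, minus strand for *STARD4*, chr21:46228725-46229024, minus strand for *LSS*, chr16:88663042-88663341, minus strand for *MVD* and chr22:41832855-41833154, plus strand for *SREBF2*.
STARD4: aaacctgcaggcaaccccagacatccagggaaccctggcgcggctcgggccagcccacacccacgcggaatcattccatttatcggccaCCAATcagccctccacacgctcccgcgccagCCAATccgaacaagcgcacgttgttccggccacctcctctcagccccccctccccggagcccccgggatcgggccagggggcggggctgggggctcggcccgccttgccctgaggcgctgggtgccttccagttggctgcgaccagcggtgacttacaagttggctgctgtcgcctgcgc
LSS: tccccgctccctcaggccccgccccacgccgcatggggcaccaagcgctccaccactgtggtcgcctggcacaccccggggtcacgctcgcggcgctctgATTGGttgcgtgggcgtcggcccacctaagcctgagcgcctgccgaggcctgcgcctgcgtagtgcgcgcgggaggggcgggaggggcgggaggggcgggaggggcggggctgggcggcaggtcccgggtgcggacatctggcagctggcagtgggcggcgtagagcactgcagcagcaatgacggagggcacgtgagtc
MVD: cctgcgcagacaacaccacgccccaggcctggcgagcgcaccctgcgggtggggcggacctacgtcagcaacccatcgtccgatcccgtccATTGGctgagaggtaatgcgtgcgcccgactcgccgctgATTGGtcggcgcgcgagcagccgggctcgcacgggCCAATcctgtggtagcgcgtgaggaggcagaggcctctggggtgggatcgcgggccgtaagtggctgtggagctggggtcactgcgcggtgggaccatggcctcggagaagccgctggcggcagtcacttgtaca
SREBF2: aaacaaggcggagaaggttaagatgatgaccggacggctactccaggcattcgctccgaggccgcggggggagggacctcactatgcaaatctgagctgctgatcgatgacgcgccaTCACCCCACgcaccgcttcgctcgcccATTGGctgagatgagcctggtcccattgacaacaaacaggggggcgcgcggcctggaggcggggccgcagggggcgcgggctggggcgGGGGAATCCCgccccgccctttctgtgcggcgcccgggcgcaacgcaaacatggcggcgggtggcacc
The CCAAT matches began 161 and 130 bases before the start site in *STARD4*, 150 bases before it in *LSS*, and 159, 120 and 85 bases before it in *MVD*. In *SREBF2* the SREBP motif began 133 bases, CCAAT 106 bases and the NF-κB consensus 18 bases before the start site, without overlapping each other. *ABCA1* had a window with none of the 3 motifs.

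In promyelocytes the share of the genes that responded to TNF-α was near that of the background. Of 33 tested, 3 rose and 1 fell (edgeR's quasi-likelihood test, FDR adjusted p under 0.05 over 16250 genes), where 14.8% of all tested genes passed, 8.15% rising and 6.65% falling. The increases were in *STARD4*, a cytosolic sterol carrier, in the cholesterol exporter *ABCA1* and in the HMG-CoA synthase *HMGCS1*, and the decrease was in *SCD*. The log2 fold change was negative for 26 of the 33 genes and for 8401 of all 16250 genes tested. The median was -0.094 against -0.0094 over all genes tested. The groups did not overlap for 9 genes, 2 with TNF-α above vehicle and 7 below, against 31.1% of all tested genes. After correction for GC content and length, the split was 2 rising and 4 falling, against 1242 rising and 1368 falling over all genes tested. The medians were then -0.069 for these genes and -0.033 over all genes. The summed promyelocyte markers were 6125 to 7019 CPM with TNF-α, below all vehicle libraries, with 3 of 5 markers falling. *MPO*, which made up most of this sum, went from a mean of 6378 to 5426 CPM. The granulocyte markers summed to 240 to 259 CPM, above all vehicle libraries, with 1 of 6 rising and 1 falling. The marker that rose was *CYBB*, from a mean of 112 to 218 CPM, and *CSF3R* fell from 21.5 to 15.8 CPM. Their part in these results was not tested.

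In granulocytes more of the genes passed the test after the same treatment, in both directions. Of 32 tested, 9 rose and 10 fell, where 49.2% of all 16944 tested genes passed, 24.4% rising and 24.8% falling. The share of these genes was thus near that of the background. Replicates varied less in granulocytes, with a common coefficient of variation of 0.049 in edgeR against 0.067 in promyelocytes. The 2 counts of calls were therefore not made at equal precision, and the part of this in them was not tested. The median log2 fold change was 0.039, against -0.0047 over all genes tested. The groups did not overlap for 21 genes, 13 with TNF-α above vehicle and 8 below, against 55.2% of all tested genes. After correction for GC content and length, 7 rose and 12 fell, against 3832 rising and 4752 falling over all genes tested. The medians were then -0.0029 for these genes and -0.045 over all genes. The promyelocyte markers summed to 2140 to 2326 CPM and the granulocyte markers to 3768 to 3827 CPM with TNF-α, both overlapping the vehicle libraries. Within the latter sum 2 of 6 granulocyte markers rose and 3 fell. *TGM2* went from 172 to 368 CPM and *FPR1* from 5.79 to 8.29 CPM, and *CD38* from 1170.1 to 1026 CPM, *ITGAM* from 299 to 250.4 CPM and *CSF3R* from 46.8 to 37.9 CPM. Their part in the results was not tested.

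**Figure D2:**
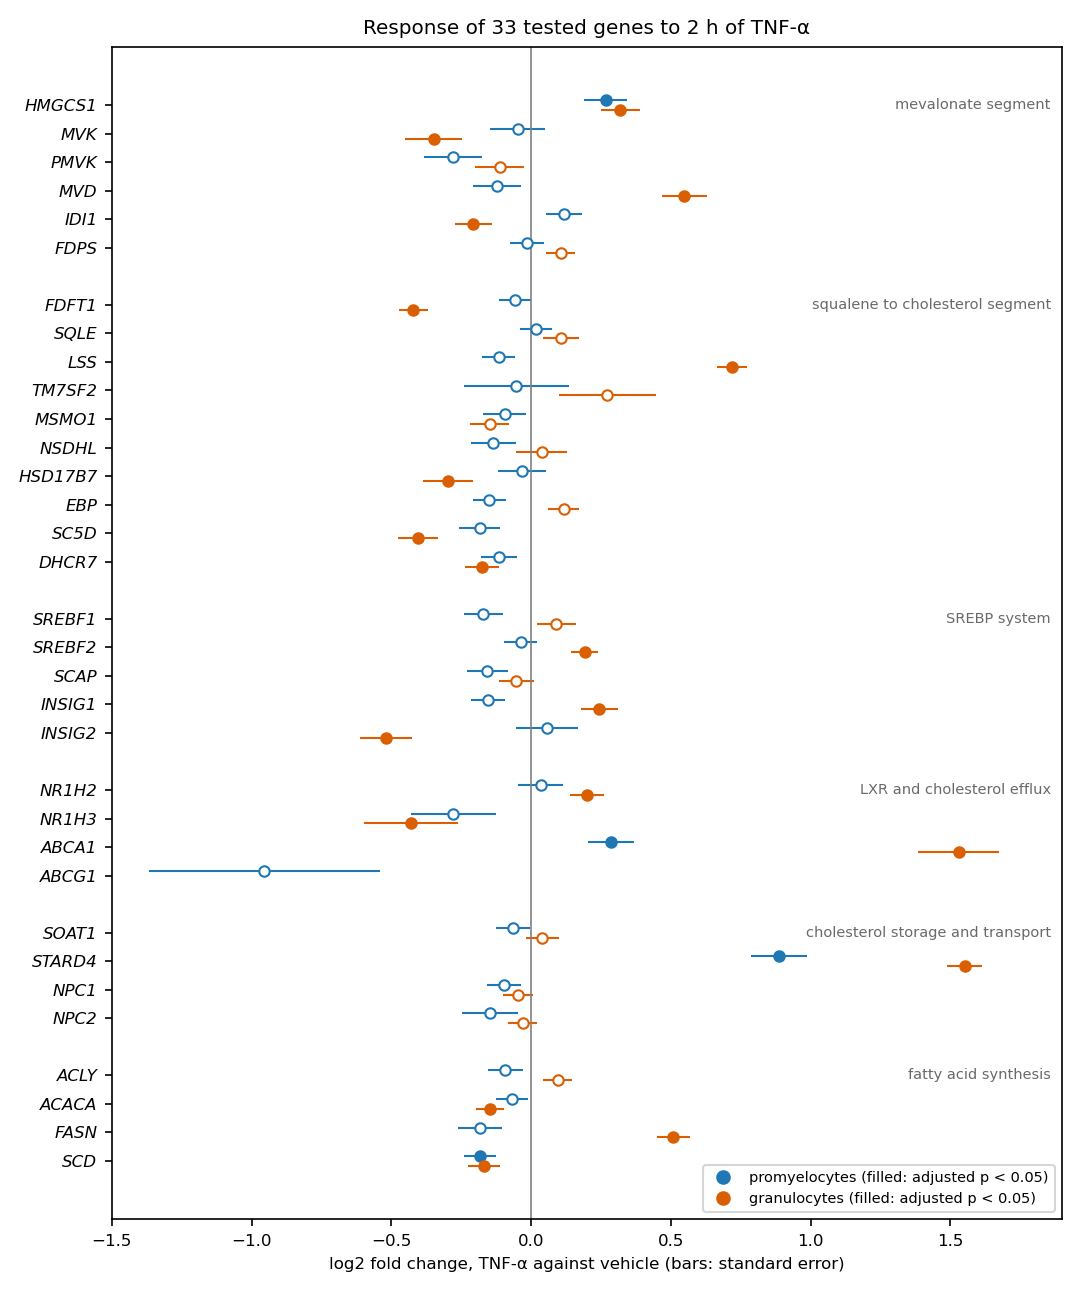
Log2 fold change of TNF-α against vehicle, with standard errors, for the 33 genes tested in at least 1 cell type, grouped by role; blue is promyelocytes, orange granulocytes, filled points passed edgeR adjusted p under 0.05. *STARD4* and *ABCA1* lie to the right in both cell types, and in granulocytes the other genes spread from -0.52 (*INSIG2*) to 0.72 (*LSS*).

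Within the mevalonate segment *MVD*, which decarboxylates mevalonate diphosphate (chr16:88651935-88663161), was at 13.9, 12.5 and 14.5 CPM in vehicle granulocytes and at 20.2, 19.4 and 20.3 CPM with TNF-α. All TNF-α libraries lay above all vehicle libraries, a log2 fold change of 0.55 ± 0.08 (edgeR adjusted p = 5.38e-07). In promyelocytes it was at 22.1, 22.3 and 21.9 CPM with vehicle and 18.8, 19.2 and 22.7 CPM with TNF-α, groups that overlapped (-0.12 ± 0.09, edgeR adjusted p = 0.398). *HMGCS1* (chr5:43289395-43313512), which makes HMG-CoA, rose in both, by 0.27 ± 0.08 in promyelocytes (edgeR adjusted p = 0.0234) and by 0.32 ± 0.07 in granulocytes (0.000237). Its promyelocyte libraries overlapped, at 146, 136 and 165 CPM with vehicle and 200.1, 178 and 161 CPM with TNF-α, and the call was lost without vehicle replicate 1 (0.25, edgeR adjusted p = 0.0718), vehicle replicate 2 (0.21, 0.162), TNF replicate 1 (0.18, 0.116) or TNF replicate 2 (0.28, 0.0585). It was also lost after correction for GC content and length (0.17, edgeR adjusted p = 0.0821). The isomerase *IDI1* (chr10:1039908-1049170) was at 36.5, 35.5 and 35.1 CPM in vehicle granulocytes and 29.4, 29.4 and 34.1 CPM with TNF-α, every treated library below the vehicle ones (-0.21 ± 0.07, edgeR adjusted p = 0.00904). Without TNF replicate 2 this call was lost (-0.16, 0.0829). In promyelocytes *IDI1* was at 87.7, 83.6 and 94.2 CPM with vehicle and 99.1, 99.4 and 89.4 CPM with TNF-α, and did not pass (0.12 ± 0.06, edgeR adjusted p = 0.262). Mevalonate kinase *MVK* fell in granulocytes (-0.35 ± 0.10, edgeR adjusted p = 0.0049), though not without TNF replicate 2 (-0.27, 0.053). Phosphomevalonate kinase *PMVK* and *FDPS* passed in neither cell type. *PMVK* did so in promyelocytes without vehicle replicate 3 (-0.36, edgeR adjusted p = 0.0295) and in 1 fit of all 12 libraries (-0.30, 0.0371). In granulocytes, where it was -0.11 ± 0.09, it passed after correction for GC content and length (-0.27, edgeR adjusted p = 0.00814).

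From squalene onwards the first 3 enzymes parted in granulocytes. Squalene synthase *FDFT1* (chr8:11795573-11839309) was at 149, 143 and 138 CPM with vehicle and 103, 106 and 112 CPM with TNF-α, a fall with no overlap (-0.42 ± 0.05, edgeR adjusted p = 7.03e-09). Squalene epoxidase *SQLE* did not pass (0.11 ± 0.06, edgeR adjusted p = 0.168, 95% interval -0.02 to 0.23). Lanosterol synthase *LSS* (chr21:46188141-46228824), which closes the sterol rings, was at 55.2, 56.9 and 56.9 CPM with vehicle and 92.2, 96.0 and 89.9 CPM with TNF-α, a rise of 64.6% (0.72 ± 0.05, edgeR adjusted p = 2.15e-14). In promyelocytes *FDFT1* was at 267, 243 and 242 CPM with vehicle and 242, 249 and 232 CPM with TNF-α (-0.06 ± 0.06, edgeR adjusted p = 0.583). *LSS* there was at 155, 157 and 158 CPM with vehicle and at 147, 134 and 153 CPM with TNF-α, lower in every library but not past the test (-0.12 ± 0.06, edgeR adjusted p = 0.225). From squalene to cholesterol 0 of 10 tested genes passed in promyelocytes in the edgeR test given above or in DESeq2 (2 had an unadjusted p under 0.05), while in granulocytes 1 of 10 rose and 4 fell. These counts are to be read against the share of all tested genes that passed in edgeR, 14.8% in promyelocytes and 49.2% in granulocytes. After correction for GC content and length, *SC5D* (-0.29, edgeR adjusted p = 0.00376) and *MSMO1* (-0.21, 0.045) passed in promyelocytes, where they were -0.18 and -0.09. In 1 fit of all 12 libraries *SC5D* (-0.21, edgeR adjusted p = 0.0449) and *EBP* (-0.17, 0.0322) passed there.

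The other falls of this segment in granulocytes were in the lathosterol desaturase *SC5D* (-0.40 ± 0.07, edgeR adjusted p = 9.38e-06), the keto reductase *HSD17B7* (-0.30 ± 0.09, 0.00565) and *DHCR7*, the last enzyme of a branch of the route (-0.17 ± 0.06, 0.0162). *SC5D*, whose call was kept in every alternative, was at 30.5, 29.8 and 26.9 CPM with vehicle and 22.0, 21.2 and 22.8 CPM with TNF-α. *HSD17B7* lost its call without vehicle replicate 2 (-0.22, edgeR adjusted p = 0.0756). *DHCR7* lost it without vehicle replicate 2 (-0.17, 0.0547), vehicle replicate 3 (-0.14, 0.0817), TNF replicate 2 (-0.15, 0.0971) or TNF replicate 3 (-0.14, 0.0901), with DESeq2 (-0.17, adjusted p = 0.0651) and in 1 fit of all 12 libraries (-0.16, 0.0625), and its groups overlapped. It was -0.30 after correction for GC content and length (edgeR adjusted p = 2.2e-05). The isomerase *EBP* (chrX:48521158-48528716) was at 53.9, 53.6 and 56.0 CPM in vehicle granulocytes and 62.0, 56.8 and 58.8 CPM with TNF-α. In promyelocytes it was at 133, 122 and 124 CPM with vehicle and 109, 114 and 118 CPM with TNF-α. Neither difference passed (edgeR adjusted p = 0.0766 and 0.101), although the groups did not overlap in either cell type and the signs were opposite (0.12 ± 0.06 in granulocytes and -0.15 ± 0.06 in promyelocytes). *TM7SF2*, *MSMO1* and *NSDHL*, which act between lanosterol and the last steps, passed in neither as first fitted. Besides the promyelocyte value above, *MSMO1* passed in granulocytes without TNF replicate 3 (-0.21, edgeR adjusted p = 0.021).

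Of the 5 genes of the SREBP system, 2 rose and 1 fell in granulocytes. In promyelocytes 0 of 5 passed in the same edgeR test or in DESeq2, and 3 had an unadjusted p under 0.05. Over all tested genes 49.2% passed in edgeR in granulocytes and 14.8% in promyelocytes. *INSIG2* (chr2:118088452-118110997) was at 17.2, 17.6 and 15.9 CPM in vehicle granulocytes and at 9.97, 12.2 and 13.1 CPM with TNF-α, a decrease of 0.52 ± 0.09 on the log2 scale with no overlap (edgeR adjusted p = 1.23e-05). Its paralogue *INSIG1* (chr7:155297776-155310235), itself an SREBP target, was at 39.5, 39.8 and 33.0 CPM with vehicle and 42.7, 46.1 and 44.2 CPM with TNF-α, higher in all treated libraries (0.24 ± 0.07, edgeR adjusted p = 0.00208). The retention factors thus went opposite ways. In promyelocytes *INSIG2* was at 8.82, 8.87 and 8.74 CPM with vehicle and 9.73, 9.60 and 8.19 CPM with TNF-α (0.06 ± 0.11, edgeR adjusted p = 0.786). *INSIG1* was there at 72.6, 68.5 and 70.0 CPM with vehicle and 66.1, 64.8 and 59.0 CPM with TNF-α, without passing (-0.15 ± 0.06, edgeR adjusted p = 0.111). After correction for GC content and length the latter was -0.19 and passed (edgeR adjusted p = 0.0195).

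The transcription factor genes changed little. *SREBF2* (chr22:41833079-41907308), whose product mainly drives cholesterol synthesis, was at 258, 252 and 263 CPM in vehicle granulocytes and 308, 281 and 294 CPM with TNF-α (0.19 ± 0.05, edgeR adjusted p = 0.00125). All treated libraries were higher, but after correction for GC content and length the value was 0.07 and the call was lost (edgeR adjusted p = 0.158). In promyelocytes it was at 287, 278 and 272 CPM with vehicle and 272, 254 and 289 CPM with TNF-α, groups that overlapped (-0.04 ± 0.06, edgeR adjusted p = 0.739). *SREBF1* (chr17:17810399-17837002), whose product mainly drives fatty acid synthesis, was at 21.4, 21.7 and 22.1 CPM in vehicle granulocytes and 24.1, 22.8 and 22.5 CPM with TNF-α. In promyelocytes it was at 49.4, 55.2 and 53.5 CPM with vehicle and 45.0, 43.8 and 51.5 CPM with TNF-α. It passed in neither (granulocytes 0.09 ± 0.07, edgeR adjusted p = 0.303; promyelocytes -0.17 ± 0.07, 0.123), but did in promyelocytes without TNF replicate 3 (-0.24, 0.0254) and in 1 fit of all 12 libraries (-0.19, 0.043). The escort *SCAP* passed in neither, and passed in granulocytes only after correction for GC content and length (-0.22, edgeR adjusted p = 0.00172).

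**Figure D3:**
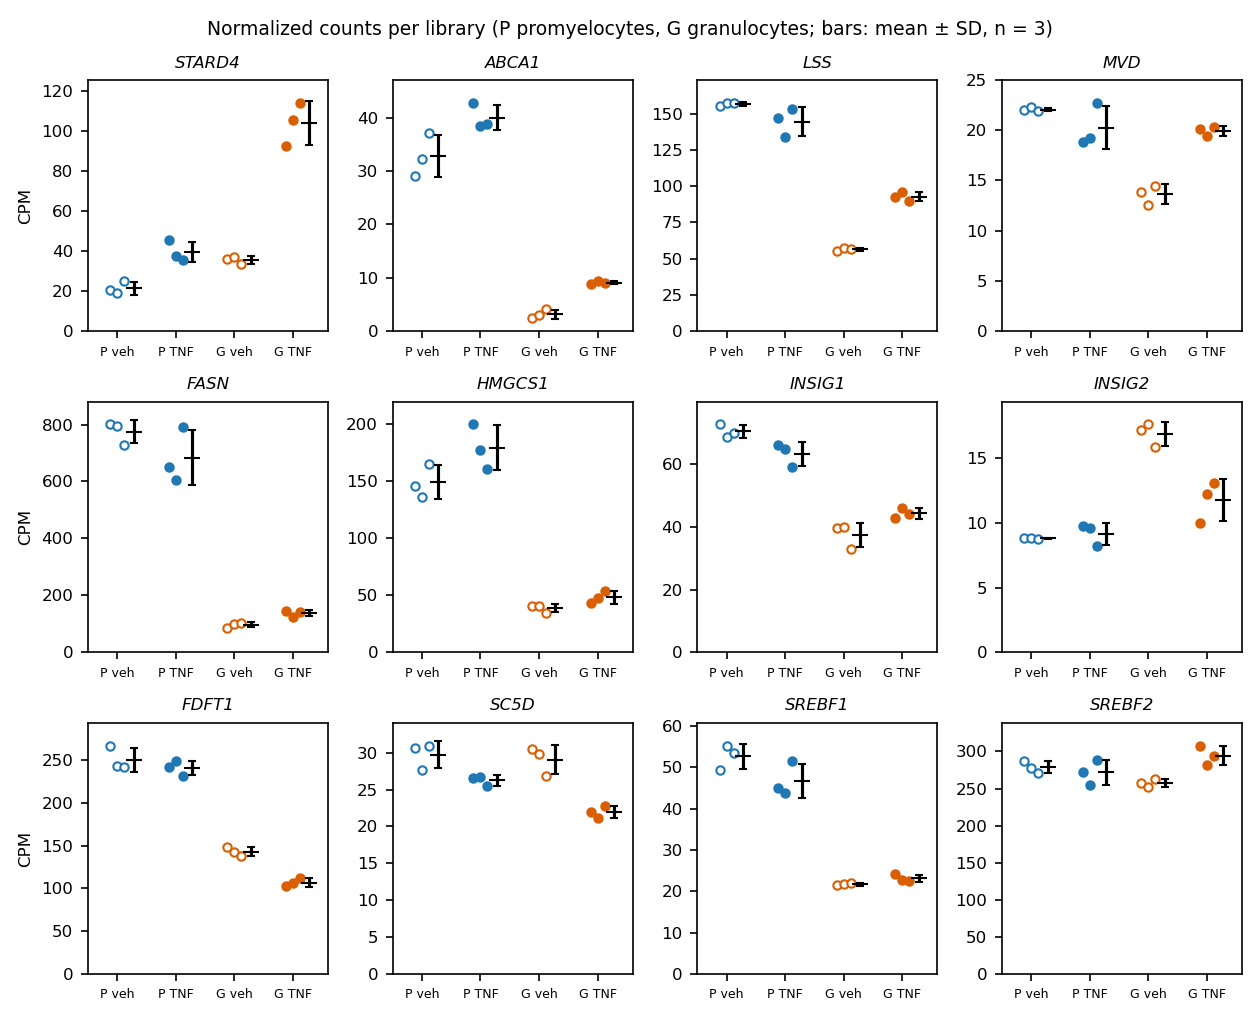
CPM in each library for 12 of the genes, with vehicle as open and TNF-α as filled points, promyelocytes (P) in blue and granulocytes (G) in orange, and black bars giving the mean ± SD of 3 libraries. The treated granulocyte libraries lie wholly above vehicle for *STARD4*, *ABCA1*, *LSS*, *MVD*, *FASN*, *HMGCS1*, *INSIG1*, *SREBF1* and *SREBF2*. They lie wholly below it for *INSIG2*, *FDFT1* and *SC5D*. Of these, *SREBF1* did not pass the test.

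Among the genes of LXR and efflux, *ABCA1* (chr9:104781002-104928237) was at 2.39, 2.90 and 4.08 CPM in vehicle granulocytes and at 8.76, 9.40 and 9.07 CPM with TNF-α, a 2.89-fold rise (1.53 ± 0.15, edgeR adjusted p = 2.84e-11). In promyelocytes, where it started higher, it was at 29.1, 32.4 and 37.1 CPM with vehicle and 42.8, 38.5 and 38.8 CPM with TNF-α. This rise, with no overlap, was 1.22-fold (0.29 ± 0.08, edgeR adjusted p = 0.0212), and the call was lost without vehicle replicate 1 (0.20, 0.137), vehicle replicate 2 (0.28, 0.082) or TNF replicate 1 (0.24, 0.0707). Even with TNF-α the granulocyte level stayed below every promyelocyte library. Neither LXR gene passed in promyelocytes. In granulocytes *NR1H2* (LXRβ) rose by 0.20 ± 0.06 (edgeR adjusted p = 0.00543), but not after correction for GC content and length (0.04, 0.50), nor without vehicle replicate 2 (0.16, 0.0512) or TNF replicate 1 (0.15, 0.0539). *NR1H3* (LXRα), at 2.39 to 4.23 CPM, fell there by 0.43 ± 0.17 on the log2 scale (edgeR adjusted p = 0.0321), a call lost without vehicle replicate 1 (-0.42, 0.0734), vehicle replicate 2 (-0.43, 0.0665), vehicle replicate 3 (-0.44, 0.0598) or TNF replicate 3 (-0.28, 0.187), and with DESeq2 (-0.43, adjusted p = 0.124).

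*STARD4* (chr5:111496033-111512590) had the largest fold change among the genes called in promyelocytes, and in granulocytes it stood with *ABCA1*, within their errors. In promyelocytes it was at 20.3, 18.8 and 24.9 CPM with vehicle and at 45.4, 37.6 and 35.7 CPM with TNF-α, a 1.85-fold rise (0.89 ± 0.10, edgeR adjusted p = 1.8e-06). In granulocytes it was at 36.1, 37.0 and 33.4 CPM with vehicle and 92.6, 106 and 114 CPM with TNF-α, a 2.93-fold rise (1.55 ± 0.06, edgeR adjusted p = 5.98e-22). Every treated library exceeded every vehicle library of its cell type. The other genes of storage and transport passed in neither cell type. These were *SOAT1*, which esterifies cholesterol, and the lysosomal exporters *NPC1* and *NPC2*, whose log2 fold changes lay between -0.15 and 0.04.

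Of the fatty acid enzymes, *FASN* (chr17:82078333-82098332) was at 86.7, 98.6 and 105 CPM in vehicle granulocytes and 147, 125 and 141 CPM with TNF-α, with no overlap (0.51 ± 0.06, edgeR adjusted p = 3.81e-09). After correction for GC content and length, this rise was 0.29 (edgeR adjusted p = 2.4e-05). In promyelocytes *FASN* was at 801, 795 and 729 CPM with vehicle and 652, 605 and 792 CPM with TNF-α, where 1 treated library reached the vehicle range (-0.18 ± 0.08, edgeR adjusted p = 0.135). Without that library, TNF replicate 3, the value was -0.30 and passed (edgeR adjusted p = 0.00775), as it did without the filter on low counts (-0.17, 0.0296). *SCD* (chr10:100347124-100364834) fell slightly in promyelocytes, from 875, 822 and 819 CPM with vehicle to 761, 703 and 751 CPM with TNF-α (-0.18 ± 0.06, edgeR adjusted p = 0.0382). The call was lost without vehicle replicate 1 (-0.15, 0.141), vehicle replicate 2 (-0.20, 0.0996), vehicle replicate 3 (-0.20, 0.077), TNF replicate 2 (-0.15, 0.162) or TNF replicate 3 (-0.19, 0.0715). In granulocytes *SCD* fell by 0.17 ± 0.06 on the log2 scale (edgeR adjusted p = 0.0129), a call lost without vehicle replicate 2 (-0.15, 0.0728), vehicle replicate 3 (-0.11, 0.126) or TNF replicate 3 (-0.13, 0.0895), or in 1 fit of all 12 libraries (-0.15, 0.0533). The acetyl-CoA carboxylase *ACACA* fell there by 0.15 ± 0.05 on the log2 scale (edgeR adjusted p = 0.0156), but not without vehicle replicate 3 (-0.13, 0.0728), TNF replicate 1 (-0.12, 0.0612) or TNF replicate 2 (-0.14, 0.0695). *ACLY* passed in neither cell type.

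Whether the responses differed between the cell types was tested directly, as the granulocyte response minus the promyelocyte response in 1 fit of all 12 libraries. Of 33 genes tested, the difference was positive and passed for 9 and negative for 3, where 24.0% of all 18124 tested genes passed, 14.1% with a positive and 9.88% with a negative difference. Over all genes 58.9% of these calls were positive, and with DESeq2 size factors 48.4% were, so the balance of signs depended on the scaling. For the 34 genes that scaling gave 8 positive and 3 negative calls. The largest difference was that of *ABCA1* (1.28 ± 0.17, edgeR adjusted p = 1.46e-06), followed by *LSS* (0.87 ± 0.08, 2.03e-09), *FASN* (0.73 ± 0.12, 2.5e-05), *MVD* (0.71 ± 0.12, 5.13e-05), *STARD4* (0.70 ± 0.13, 0.000166) and *INSIG1* (0.44 ± 0.10, 0.00121). Negative differences were found for *INSIG2* (-0.54 ± 0.14, edgeR adjusted p = 0.00684) and *FDFT1* (-0.33 ± 0.08, 0.00335). These 8 calls were kept under all 17 alternatives tried for this test, though after correction for GC content and length the difference of *FASN* was 0.39 and that of *MVD* 0.43.

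The remaining 4 differences were less secure. That of *EBP* (0.31 ± 0.08, edgeR adjusted p = 0.00639) was lost without the filter on low counts (0.22, 0.0718) and was 0.18 after correction for GC content and length (0.049). That of *SREBF2* (0.27 ± 0.08, edgeR adjusted p = 0.0135) was 0.06 after correction for GC content and length (0.576), and 0.18 without the filter (0.11). That of *SREBF1* (0.30 ± 0.10, edgeR adjusted p = 0.0276) was -0.0054 after correction for GC content and length, and none of the 5 alternative fits on all libraries called it. It was also lost without promyelocyte vehicle replicate 2 (0.27, edgeR adjusted p = 0.0792), promyelocyte TNF replicate 1 (0.27, 0.0611) or 2 (0.25, 0.0817), granulocyte vehicle replicate 1 (0.28, 0.072) or 2 (0.29, 0.0604), or granulocyte TNF replicate 1 (0.26, 0.0797). That of *IDI1* (-0.29 ± 0.09, edgeR adjusted p = 0.0242) was -0.19 after correction for GC content and length (0.0775). It was lost without promyelocyte vehicle replicate 2 (-0.25, edgeR adjusted p = 0.079), promyelocyte TNF replicate 2 (-0.26, 0.0591), granulocyte TNF replicate 1 (-0.26, 0.0693) or granulocyte TNF replicate 2 (-0.25, 0.0885). *ACLY* just missed the threshold (0.23 ± 0.08, edgeR adjusted p = 0.0508) and passed without promyelocyte vehicle replicate 3 (0.26, 0.0332), promyelocyte TNF replicate 1 (0.26, 0.0261) or 3 (0.25, 0.0415), or granulocyte vehicle replicate 3 (0.26, 0.0394). *NR1H2* (0.20 ± 0.11, edgeR adjusted p = 0.194) passed without promyelocyte TNF replicate 3 (0.29, 0.049). A further 3 differences passed after correction for GC content and length, those of *MVK* (-0.48, edgeR adjusted p = 0.0177, from -0.26), *DHCR7* (-0.21, 0.0424, from -0.02) and *SOAT1* (0.22, 0.0442, from 0.14).

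**Figure D4:**
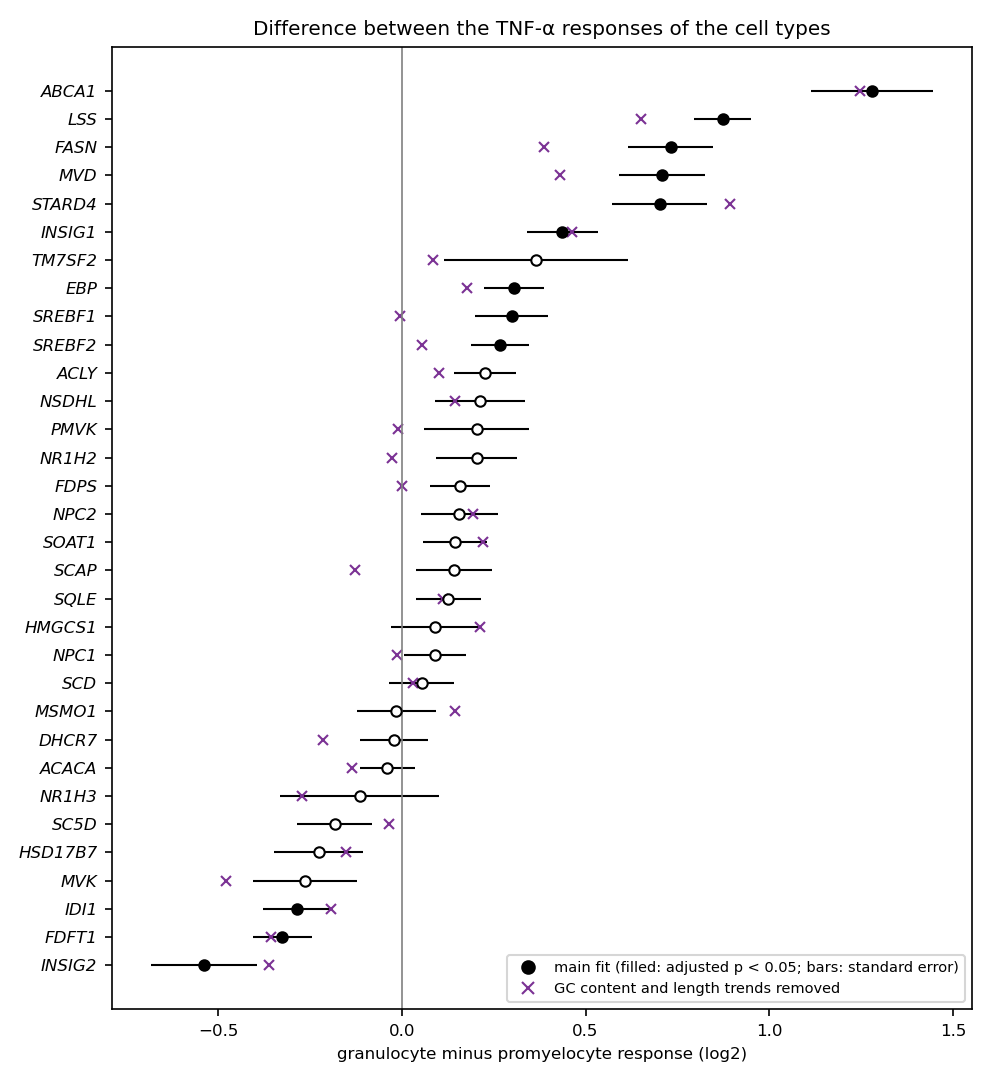
Difference of the log2 responses (granulocyte minus promyelocyte) with its standard error for 32 genes, *ABCG1* left out for its low counts; filled points passed edgeR adjusted p under 0.05 and crosses give the value after correction for GC content and length. *ABCA1* and *LSS* lie farthest to the right, and the crosses of *SREBF1* and *SREBF2* lie near 0.

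The responses moved with base composition. Spearman's rho between transcript GC content and the difference was 0.39 over the 33 genes and 0.27 over 17611 genes tested, and between GC content and the promyelocyte response it was -0.36 over the 33 genes and -0.25 over 16077 genes. In granulocytes it was 0.25 over 32 genes and 0.14 over 16775 genes. The genes share libraries, so these are descriptions. The GC content of *FASN* was 65.3%, that of *MVD* 63.7%, that of *SREBF1* 63.2% and that of *LSS* 58.1%, while *STARD4* had 34.4% and *INSIG2* 36.3%.

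A further 60 genes of the same pathways were followed. In promyelocytes 4 of 52 tested rose and 10 fell, with a median log2 fold change of -0.069, where 8.15% of all tested genes rose and 6.65% fell. In granulocytes 11 of 51 rose and 24 fell, with a median of -0.16, where 24.4% of all tested genes rose and 24.8% fell. By list, 4 of 18 tested genes of fatty acid synthesis rose there and 5 fell, and 3 of 10 of SREBP processing rose and 4 fell. For LXR partners and targets 2 of 6 rose and 3 fell, and for sterol synthesis 0 of 5 rose and 3 fell. In granulocytes the 12 tested genes of cholesterol transport held 2 that rose and 9 that fell, with a median of -0.26, to be read against the same shares. The transport genes that rose were *STARD5*, a sterol-binding relative of *STARD4*, from 4.04 ± 0.197 to 9.48 ± 0.751 CPM (1.23 ± 0.12, edgeR adjusted p = 9.58e-11), and *GRAMD1A*, which moves cholesterol from the plasma membrane to the endoplasmic reticulum, from 60.4 ± 0.276 to 138 ± 4.87 CPM (1.19 ± 0.05, 2.46e-21). Its paralogue *GRAMD1B* fell, from 41.3 ± 0.676 to 16.2 ± 1.15 CPM (-1.36 ± 0.07, edgeR adjusted p = 6.23e-19). None of these 3 passed in promyelocytes, and for all 3 the difference between the cell types passed (1.01 ± 0.21, 1.13 ± 0.08 and -1.14 ± 0.09). The largest change on these lists was that of *ME1*, the cytosolic malic enzyme that supplies NADPH for lipid synthesis. It went from 11.9 ± 0.958 to 91.3 ± 6.25 CPM in granulocytes (2.93 ± 0.07, edgeR adjusted p = 9.94e-30) and from 33.1 ± 1.08 to 39.8 ± 2.70 CPM in promyelocytes (0.26 ± 0.07, edgeR adjusted p = 0.0128).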

How the data were processed

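RNA of 12 HL-60/S4 libraries (4 groups of 3) was sequenced as paired ends after ribosomal depletion. The authors aligned reads to hg38 with STAR 2.5.3a and deposited raw counts per GENCODE gene from featureCounts 1.5.2, with primary pairs, both ends mapped, on the reverse strand. The table held 58288 genes, 711 of them without a symbol match, and 1 length column, also as the authors gave it. Counts were filtered (filterByExpr, minimum count 10, minimum total 15), scaled by TMM and tested with edgeR 4.0.16 (R 4.3.3) by the quasi-likelihood test, with Benjamini-Hochberg adjustment over all genes tested and a threshold of 0.05. Promyelocytes and granulocytes were fitted apart, and the difference of their responses in 1 fit of all libraries. CPM and FPKM were computed from the counts. Standard errors are the log2 fold change over the root of F, and 95% intervals follow from them. GC content was taken from the longest GENCODE transcript of each symbol in a later release than that counted. A count of 0 allows up to 3 counts, 0.0941 to 0.131 CPM, which covers counting error only. Replicates differed by 3.84 to 15.8 times the sampling noise, so none was a repeat deposit. The scripts were tested on simulated data. The alternatives were DESeq2 size factors, no filter, DESeq2 1.42.0, a replicate block, each library left out, offsets removing GC content and length trends, and 1 fit of all libraries. The members and lists were chosen with earlier results of these data known. Values in every library are given for members called with no overlap and a log2 fold change of at least 0.5, for members whose response differed, and for *SREBF1*, *SREBF2*, *INSIG1* and *ABCA1*; *HMGCS1*, *SC5D* and *SCD* were added after their values were seen. Further genes were named where called with a log2 fold change of at least 1. Pseudogene rows named after members (17) held at most 17 counts in any library.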

Additional observations from a re-analysis of the deposited data

Results flagged for a closer look

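The TNF-α response differed between granulocytes and promyelocytes for 12 of 33 genes by the test of the difference itself (edgeR adjusted p under 0.05). Over all 18124 genes tested, 24.0% passed. The response was higher in granulocytes, on the log2 scale, by 1.28 for *ABCA1*, 0.87 for *LSS*, 0.73 for *FASN*, 0.71 for *MVD*, 0.70 for *STARD4*, 0.44 for *INSIG1*, 0.31 for *EBP*, 0.30 for *SREBF1* and 0.27 for *SREBF2*. It was lower, with differences of -0.54 for *INSIG2*, -0.33 for *FDFT1* and -0.29 for *IDI1*. The differences of *EBP*, *SREBF1*, *SREBF2* and *IDI1* lost their call in at least 1 setting. After correction for GC content and length that of *SREBF1* was -0.0054 and that of *SREBF2* 0.055. The cell types were treated in separate experiments, so a difference between cell types and one between experiments cannot be told apart.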

How the results depend on the processing

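Of 1341 values recomputed for single members, 1221 kept their direction and their side of the threshold, 58 lost it, 23 passed anew and 39 changed sign. In every setting tried, 10 of the 19 granulocyte calls were kept (*ABCA1*, *FASN*, *FDFT1*, *HMGCS1*, *INSIG1*, *INSIG2*, *LSS*, *MVD*, *SC5D* and *STARD4*), but only 1 of the 4 promyelocyte calls (*STARD4*). The count of members that fell in promyelocytes, 1, was 2 without the filter, 0 with the replicate block, 4 with GC content and length offsets and 5 in 1 fit of all libraries, and 0 to 2 with a library left out. With a library left out, 1 to 3 members rose in promyelocytes, and the members that fell in granulocytes numbered 6 to 9 (6 without vehicle replicate 2, vehicle replicate 3 or TNF replicate 2). Of the other pathway genes, 2 to 5 rose in promyelocytes with a library left out, and 19 fell in 1 fit of all libraries.

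The replicate block ended the call of *SCD* in promyelocytes (-0.18, edgeR adjusted p = 0.155) and the differences of *IDI1* (-0.29, 0.0707) and *SREBF1* (0.30, 0.0635), and changed no other member's call. Same-numbered libraries did not deviate together (correlations -0.26, -0.12 and -0.18 in promyelocytes, -0.11, -0.02 and -0.15 in granulocytes), so the numbers gave no sign of a pairing. Between vehicle and TNF-α libraries of different numbers the correlations were -0.13 to 0.27 in promyelocytes and -0.05 to 0.16 in granulocytes. Whether libraries shared handling under another numbering was not tested.

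Signs changed with GC content and length offsets for *FDPS* (0.017), *TM7SF2* (0.019), *SREBF2* (0.010) and *INSIG2* (-0.063) in promyelocytes, for *SREBF1* in granulocytes (-0.10), and for the differences of *PMVK* (-0.0098), *MSMO1* (0.14), *SREBF1* (-0.0054), *SCAP* (-0.13), *NR1H2* (-0.026) and *NPC1* (-0.014). *SQLE* was -0.0056 in promyelocytes in 1 fit of all libraries, and the difference of *SCD* was -0.031 without the filter and -0.0059 with DESeq2. With a library left out, signs changed in promyelocytes for *FDPS* (-0.054 to 0.025), *HSD17B7* (-0.077 to 0.011), *MVK* (-0.11 to 0.064), *NR1H2* (-0.048 to 0.10), *SQLE* (-0.021 to 0.045), *SREBF2* (-0.080 to 0.013) and *TM7SF2* (-0.21 to 0.071), in granulocytes for *NPC2* (-0.065 to 0.022), *NSDHL* (-0.0045 to 0.12) and *SOAT1* (-0.028 to 0.086), and in the difference for *DHCR7* (-0.088 to 0.027), *MSMO1* (-0.085 to 0.041), *NR1H3* (-0.23 to 0.029) and *SCD* (-0.032 to 0.11). None of these values passed the test except the difference of *SREBF1* as first fitted. The cause was not tested. *ABCG1* had too few counts for a test in granulocytes.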
